A study of Mus musculus with 6 samples.

Results

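The LETM family in the mouse comprises Letm1, Letm2 and Letmd1, nuclear genes for proteins of the inner mitochondrial membrane that share a LETM1-type domain. They were the 3 rows with these symbols among 24391 genes of a count table from Neuro2a cells, a mouse neuroblastoma line. Letm2 ranked 3 by its D-serine over control increase among 10164 genes with a mean of at least 5 CPM (counts scaled to library size). Among all 13366 genes tested it ranked 227. The family was chosen by this D-serine over control difference of Letm2. That difference is therefore given for all 3 genes as a description, with no test. All 3 passed the filter on low counts, as did 13366 genes in all. Poly(A) RNA was sequenced in 6 libraries, 3 from control cells given vehicle and 3 from cells given 5 mM D-serine, the mirror image of L-serine. Both groups spent 18 h in a medium written as D-MEM(-SG) with serum, and the labels name no genetic change in either. All libraries come from 1 cell line, and nothing says whether they are separate cultures, so p-values measure only the spread between these libraries, which may be technical.

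LETM1 sits in the inner membrane and is known as an exchanger of cations for protons. It has been described as a potassium and as a calcium exchanger, and its loss swells mitochondria and disturbs the cristae. Deletions that include the human gene occur in Wolf-Hirschhorn syndrome. LETM2 is the close paralog of LETM1, best known from testis and sperm. LETMD1 is a more distant relative, also mitochondrial, that brown fat needs for heat production, and ion exchange is less established for it.

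The family differs in sequence in ways that bear on how its reads can be counted. The longest open reading frames in GENCODE M21 encode 738 residues for Letm1, 480 for Letm2 and 360 for Letmd1. In a local protein alignment, Letm1 and Letm2 matched at 56.8% of 322 aligned residues. Letm1 and Letmd1 matched at 24.8% of 246, and Letm2 and Letmd1 at 26.1% of 253. The following 150 coding bases are the ungapped stretch in which Letm1 and Letm2 were most alike. They are shown to let the bases of the paralogs be compared. They lie within 1 exon of each gene on the minus strand of GRCm38, at chr5:33760729-33760878 for Letm1 and at chr8:25586613-25586762 for Letm2, and are written 5′ to 3′ with capitals at the bases that differ.
Letm1: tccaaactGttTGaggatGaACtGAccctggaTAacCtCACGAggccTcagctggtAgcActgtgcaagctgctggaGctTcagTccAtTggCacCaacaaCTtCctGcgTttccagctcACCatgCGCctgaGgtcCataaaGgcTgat
Letm2: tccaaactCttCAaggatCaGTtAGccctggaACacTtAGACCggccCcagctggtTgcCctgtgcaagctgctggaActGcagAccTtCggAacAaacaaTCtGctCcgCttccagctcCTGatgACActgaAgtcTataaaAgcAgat
The 2 stretches share 109 of 150 bases (72.7%) and encode 38 of 50 identical residues. The 41 differing bases are spread along the whole stretch. Over all annotated transcripts, the longest run of identical bases was 31 between Letm1 and Letm2, 13 between Letm1 and Letmd1, and 15 between Letm2 and Letmd1. No stretch of 50 bases of the Letm1 or Letmd1 main transcript recurred in a transcript of another gene.

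Letm2 had such a repeat. Of its 2077 stretches of 50 bases, 347 (16.7%) recurred in D830025C05Rik, an antisense RNA annotated on the opposite strand, whose exon covers all 394 bases of the first Letm2 exon. The count table has no row of that name. Its first Letm2 exon holds 368 of the 2100 counted bases (17.5%). The libraries were made with a kit that keeps strand, per the labels, but the strand setting of the counting is not given in the sources used here, so that reads of the antisense RNA in that exon cannot be told apart from those of Letm2. No other row of the table shared exonic bases with any of the 3 genes. The deposited models had 14 exons for Letm1, 11 for Letm2 and 9 for Letmd1, as many as the main GENCODE transcripts. The Letm1 model was shorter (3480 of 5272 bases), mainly in its last exon (1261 of 2940 bases), and those of Letm2 (2100 against 2126) and Letmd1 (2579 against 2502) were close.

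The total count lay between 32518483 and 40024265 per library. D-serine replicate 1 stood apart from its group, with a chi-square per degree of freedom of 17.7 and 13.9 against its fellows, where all other pairs within a group gave 3.88 to 6.54. Each gene's log2 CPM, less its mean over the 6 libraries, was also set against log2 exonic length. D-serine replicate 1 had the steepest slope, -0.0717, against 0.0152 to 0.0356 in control and -0.0040 and 0.0058 in the other D-serine libraries. Over all genes tested, 9.74% (1302, of which 647 were higher and 655 lower) passed an edgeR adjusted p of 0.05, and 28.2% had an unadjusted p under 0.05. With the length trend removed, 15.3% (2043) passed. Each count of a list is to be read against the share of all genes under the same rule and setting. When a library was left out, the calls over all genes changed as well. Upper quartile scaling divided the calls into 914 higher and 412 lower, and library totals into 944 and 412. Without 1 library the count ran from 68 (control replicate 2 left out) and 125 (control replicate 1) through 291 (D-serine replicate 3) and 453 (control replicate 3) to 1566 (D-serine replicate 2) and 1699 (D-serine replicate 1).

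Neuroblastoma and sympathoadrenal markers were present, 10 of 14 at 5 CPM or more. Their summed level was 1524 to 1551 CPM in control and 1581 to 1626 CPM under D-serine, and 1 of the 14, Mycn, rose (log2 fold change 0.15, edgeR adjusted p = 0.0475). The noradrenergic enzymes Th and Dbh were at 1.49 and 1.53 CPM in control. Markers of testis germ cells, where Letm2 is best known, and of other cell types were measured too. The 12 germ cell markers summed to 11.5 to 13.3 CPM in control and 9.54 to 12.5 CPM under D-serine, mostly from Sycp1 (7.79 CPM in control and 6.39 CPM under D-serine), and Prm2 and Tnp1 had no count. The 6 skeletal muscle markers summed to 2.99 to 4.68 CPM in control and 4.99 to 6.04 CPM under D-serine, with Myh1 at 0. The 6 glial markers summed to 15.6 to 16.8 CPM and the 5 fibroblast markers to 4.61 to 6.90 CPM over all libraries, with Aqp4 and Lum at 0. Of these 29 markers 13 were tested, and 0 passed the edgeR threshold, with 0 at an unadjusted p under 0.05.

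Letm2 (chromosome 8, 26688962 to 26707959, minus strand, in the deposited coordinates) was the least abundant of the 3 genes. Its raw counts, with replicates in order, were 291, 266 and 295 under vehicle against 563, 486 and 529 under D-serine. Scaled to the library, these were 9.02, 7.17 and 7.93 CPM in control and 14.4, 13.2 and 13.1 CPM under D-serine. All D-serine libraries were above all control libraries, with a wide gap between the groups. The means were 8.04 ± 0.93 and 13.6 ± 0.68 CPM (SD, n = 3 each), a ratio of 1.69 and a log2 fold change of 0.76 (SE 0.10). As bulk RNA was measured, more cells with the transcript and more transcript per cell cannot be told apart.

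Letm1 (chromosome 5, 34084001 to 34125353, minus strand) had 2459, 2901 and 2948 counts in control and 3209, 2773 and 3081 under D-serine. It stood at 76.2, 78.2 and 79.2 CPM in control and at 81.8, 75.4 and 76.5 CPM under D-serine. The groups overlapped, since D-serine replicate 1 was the highest library and D-serine replicate 2 the lowest. The means were 77.9 ± 1.53 and 77.9 ± 3.43 CPM (SD, n = 3 each), with a log2 fold change of 0.00047 (SE 0.049).

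Letmd1 (chromosome 15, 100299465 to 100309683, plus strand) had 1924, 2256 and 2205 counts in control and 2545, 2252 and 2518 under D-serine. It stood at 59.6, 60.8 and 59.2 CPM in control and at 64.9, 61.3 and 62.5 CPM under D-serine. The groups did not overlap, but D-serine replicate 2 lay only just above control replicate 2. The means were 59.9 ± 0.82 and 62.9 ± 1.85 CPM (SD, n = 3 each), with a log2 fold change of 0.070 (SE 0.049). Absence of overlap was thus seen in 2 of 3 members and in 32.9% of all genes tested, and nothing is read from this count because the same contrast chose the family.

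**Figure D1:**
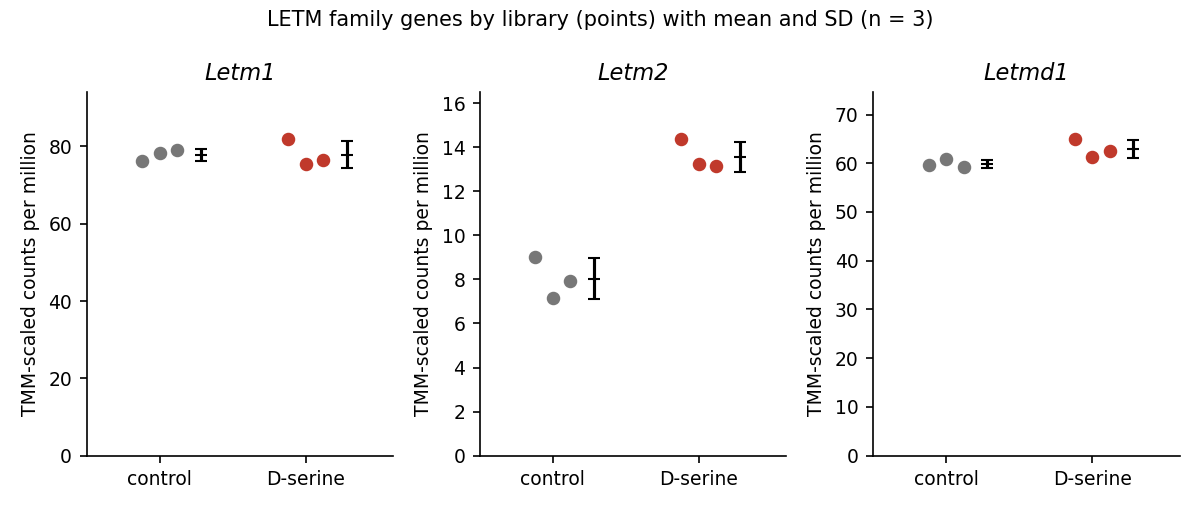
Library-scaled level in CPM (vertical axes, each from 0) of Letm1, Letm2 and Letmd1 in the 3 control (grey) and 3 D-serine (red) libraries, with the mean and SD beside the points. The Letm2 libraries lie at 7.17 to 9.02 CPM in control and 13.1 to 14.4 CPM under D-serine, whereas the groups overlap for Letm1 and nearly touch for Letmd1.

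D-serine replicate 1 had the highest value of all 6 libraries for each of the 3 genes. Without it, the log2 fold change was 0.72 for Letm2, 0.047 for Letmd1 and -0.036 for Letm1. With each library's trend on exonic length removed, it was 0.73 for Letm2, 0.059 for Letmd1 and 0.0052 for Letm1. The 3 genes rank by length in the opposite order to their fold changes, Letm2 being the shortest and Letm1 the longest, and the values with the trend removed keep that order. Over all 16 alternative settings, Letm2 lay between 0.68 (without control replicate 2) and 0.85 (without control replicate 1) and Letmd1 between 0.047 and 0.10. Letm1 lay between -0.036 and 0.031 and had no constant sign.

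**Figure D2:**
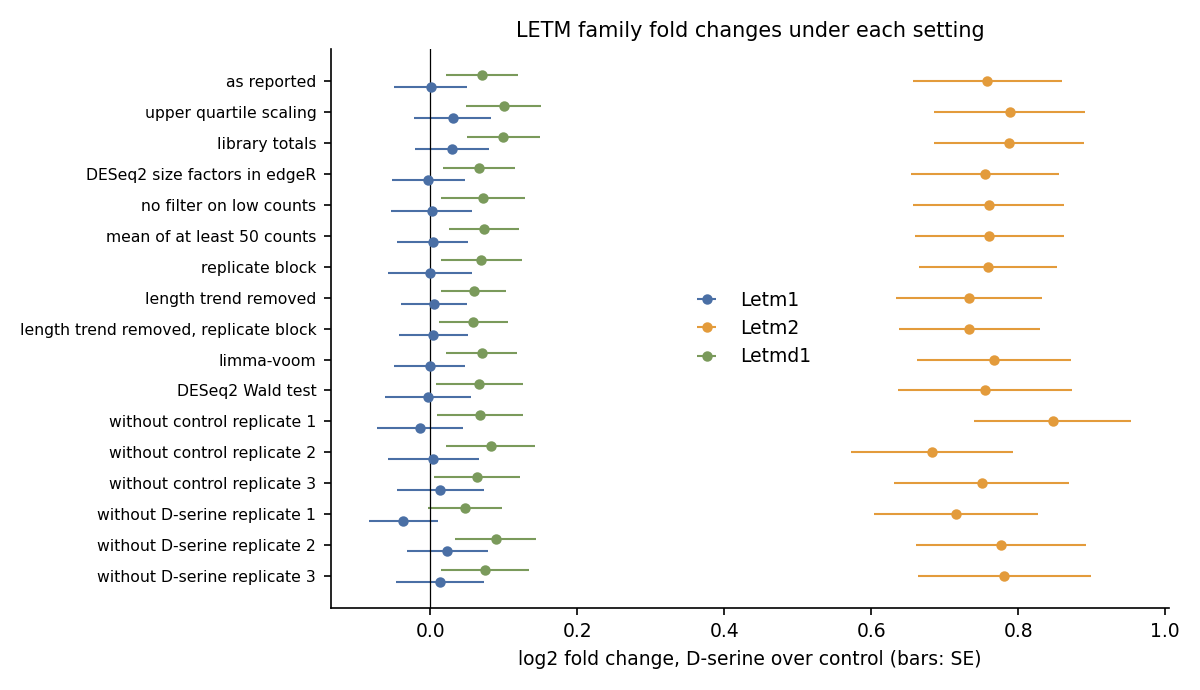
Log2 fold change of D-serine over control (horizontal axis) of each gene as reported and under 16 alternative settings (rows), with bars of 1 SE. Letm2 stays between 0.68 and 0.85, while Letm1 and Letmd1 lie within -0.036 to 0.10.

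The spread within groups, which did not enter the choice of the family, was widest for Letm2, the member with the fewest counts. For Letm2 the coefficient of variation of CPM was 11.6% in control and 5.03% under D-serine, and counting alone would give 5.94% and 4.37%. For Letm1 it was 1.96% and 4.40%, against 1.91% and 1.82% from counting. For Letmd1 it was 1.38% and 2.94%, against 2.17% and 2.03%. The pooled within-group SD in log2 CPM was 0.13 for Letm2, larger than in 53.3% of 599 genes of like level (within 0.25 log2 CPM). It was 0.049 for Letm1, larger than in 31.0% of 1144 such genes, and 0.033 for Letmd1, larger than in 8.58% of 1177.

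Levels of different genes were compared per kilobase of counted exon (RPKM). In control, Letmd1 stood at 23.2 ± 0.32, Letm1 at 22.4 ± 0.44 and Letm2 at 3.83 ± 0.44 RPKM (SD, n = 3). With D-serine the order was the same, at 24.4 ± 0.72, 22.4 ± 0.99 and 6.46 ± 0.32 RPKM. Letmd1 exceeded Letm1 in every library, but the log2 ratio of the 2 ran only from 0.013 in control replicate 3 to 0.14 in D-serine replicate 3, so these neighbours in the order were close. Letm2 was far below both. Letm1 exceeded it 5.10-fold, 6.58-fold and 6.03-fold in the control libraries, but 3.44-fold, 3.44-fold and 3.51-fold in those given D-serine. By CPM, 32.5% of the tested genes were less abundant than Letm2, 73.9% than Letm1 and 68.0% than Letmd1.

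A ratio within a library does not depend on the scaling between libraries, but a library's trend on exonic length still enters it. On the log2 scale, Letm2 over Letm1 in RPKM was -2.55 ± 0.19 in control and -1.79 ± 0.018 under D-serine (SD, n = 3 each), a difference of 0.76. Letm2 over Letmd1 was -2.61 ± 0.18 and -1.92 ± 0.037, a difference of 0.69. Neither ratio overlapped between the groups, and the SD of both was smaller under D-serine. The separation of these ratios, and of the shares below, follows from the Letm2 difference that chose the family. It is no separate result. The share of Letm2 in the summed RPKM of the family was 8.71%, 6.90% and 7.62% under vehicle against 12.3%, 12.2% and 11.9% under D-serine, with replicates in order. The share of Letm1 was 45.3% ± 0.80 in control and 42.1% ± 0.27 under D-serine, and that of Letmd1 was 47.0% ± 0.64 and 45.8% ± 0.44. The summed level of the family was 49.4 ± 0.10 RPKM in control and 53.2 ± 2.01 RPKM under D-serine.

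**Figure D3:**
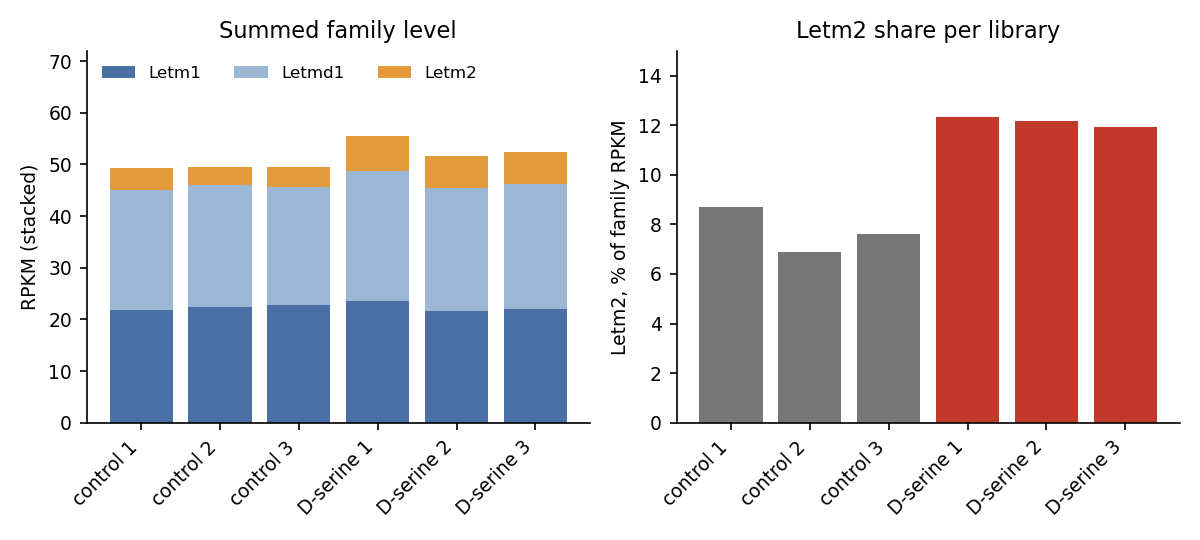
Left, RPKM of the 3 genes stacked for each library. Right, Letm2 as a percentage of the summed family RPKM, with control libraries in grey (6.90% to 8.71%) and D-serine libraries in red (11.9% to 12.3%).

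The variation between libraries was also compared among the members. After removal of the group means, Pearson's r of log2 CPM over the 6 libraries was 0.083 between Letm2 and Letm1, 0.067 between Letm2 and Letmd1, and 0.80 between Letm1 and Letmd1. These are descriptions over few libraries that share their depth and scaling. D-serine replicate 1, which stood apart from its group, was the highest library for both Letm1 and Letmd1. Its part in the r of 0.80 was not tested. Of 9794 named genes with at least 5 CPM, those with the pattern most like Letm2 over the 6 libraries, here with the group difference kept, were Syt5, a synaptotagmin (r = 0.995), Mrpl30, a mitochondrial ribosomal protein (0.995), the transcription factor Sox9 (0.993), the sulfatase Arsg (0.993) and the transporter Abcc10 (0.990). Their log2 fold changes ran from 0.15 (Sox9) to 0.80 (Arsg), and 127 genes had an r over 0.95. With the group means removed, the r of these 5 genes was 0.935 (Syt5), 0.952 (Mrpl30), 0.912 (Sox9), 0.916 (Arsg) and 0.858 (Abcc10). These values are not a separate check, since the same 6 libraries chose the genes. The genes most like Letm1 were Arhgef39, the complex I subunit Ndufb9, the spermidine synthase gene Srm, the ribosomal protein gene Rpl5 and Pebp1 (r from 0.989 to 0.995). Those most like Letmd1 were the autophagy gene Map1lc3b, Rpap3, Ankrd46, the actin-binding profilin gene Pfn2 and Hmgn2 (r from 0.989 to 0.995).

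Letm1 and Letm2 lie in paralogous chromosome blocks, each with an FGF receptor gene, an NSD histone methyltransferase gene and a TACC gene, so their neighbours were compared. Tacc1, of the Letm2 block, does not lie within 250 kb of Letm2. Letm2 has Fgfr1 2772 bases away on its 3′ side and Whsc1l1 (also called Nsd3) 4114 bases away on its 5′ side. Both of these adjoining genes fell while Letm2 was higher. Fgfr1 fell from 87.0 ± 0.84 to 76.1 ± 1.75 CPM (SD, n = 3 each), a log2 fold change of -0.19 (SE 0.045) at an edgeR adjusted p of 0.0223. It shares 125 exonic bases with Gm16159 on the opposite strand. Whsc1l1 fell from 370 ± 14.3 to 313 ± 32.5 CPM (-0.24, SE 0.064, edgeR adjusted p = 0.0336). Letm1 has Fgfr3 4284 bases away on its 3′ side, and Fgfr3 fell from 37.5 ± 1.59 to 31.0 ± 1.02 CPM (-0.28, SE 0.059, edgeR adjusted p = 0.0166). Whsc1 (also called Nsd2), on the other side of Letm1, had a log2 fold change of -0.065 (SE 0.052, edgeR adjusted p = 0.448), Tacc3 one of -0.034 (adjusted p = 0.711) and Tacc1 one of -0.13 (adjusted p = 0.150). Of the 8 genes listed for these blocks, which also include Plekha2 and Slbp, 3 fell and 0 rose (edgeR, 37.5% against 9.74% of all genes). At an unadjusted p under 0.05 there were 5, where 28.2% of all genes passed, and the median was -0.095 against 0.0053 over all genes tested. With the length trend removed, 2 of the 8 rose and 2 fell, where 15.3% of all genes passed. Under that setting Whsc1 was among those that rose, at 0.10 (edgeR adjusted p = 0.0457), and Whsc1l1 was at -0.073 (edgeR adjusted p = 0.103).

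Genes within 250 kb of a member numbered 40, of which 31 were tested and 6 of these belong to the block list. Of the 31, 2 rose and 4 fell (19.4%, against the background of 9.74%), with a median of 0.0038. The 4 that fell include Fgfr1, Whsc1l1 and Fgfr3, the calls of the block list, so this share and that of the blocks are not separate. Around Letm2, 4 of 8 genes were called, around Letm1 1 of 10 and around Letmd1 1 of 13. Ash2l, a subunit of histone H3 methyltransferase complexes 218514 bases from Letm2, rose from 181 ± 2.11 to 208 ± 3.23 CPM (SD, n = 3 each), a log2 fold change of 0.20 (SE 0.040) at an edgeR adjusted p of 0.0141. The others, named after their values were seen, were Star, the steroidogenic cholesterol transfer protein (-0.31, edgeR adjusted p = 0.0424), near Letm2, and the transcription factor gene Tfcp2 (0.24, edgeR adjusted p = 0.0483), near Letmd1. Csrnp2, which ends 318 bases from Letmd1 on the opposite strand, had a log2 fold change of -0.064 (SE 0.054, edgeR adjusted p = 0.461). The count of 6 was 0 without control replicate 1 or 2 or D-serine replicate 3, where 125, 68 and 291 of all genes passed. It was 2 without control replicate 3, where 453 passed. With the length trend removed, 3 neighbours rose and 3 fell, where 15.3% of all genes passed. Whsc1 and not Whsc1l1 was among these calls. The block count of 3 was 0 without control replicate 1, 2 or 3 or D-serine replicate 3.

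**Figure D4:**
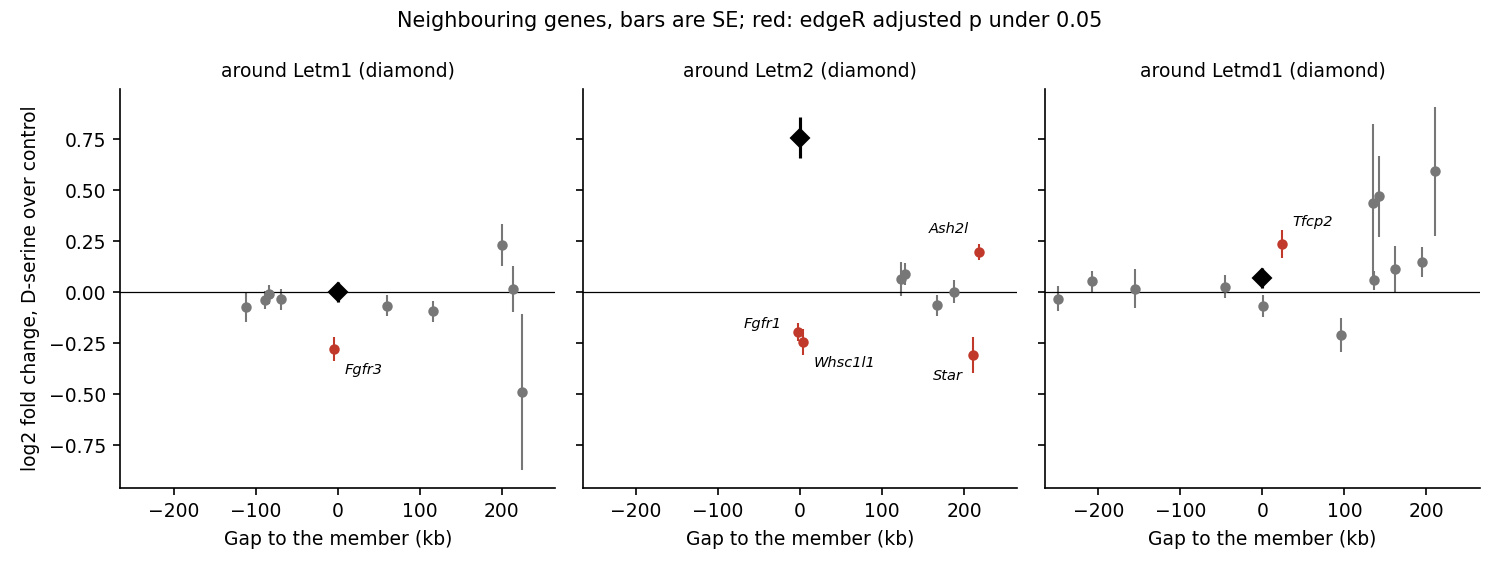
Log2 fold change with SE (vertical axis) of tested genes within 250 kb of each member, by their gap in kb along the chromosome (horizontal axis), with the member as a black diamond at 0 and called genes in red. Fgfr1 and Whsc1l1 beside Letm2 and Fgfr3 beside Letm1 lie at -0.19, -0.24 and -0.28.

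Of 26 tested genes of mitochondrial ion transport, 2 rose and 0 fell (edgeR, 7.69% against 9.74% of all genes). At an unadjusted p under 0.05 there were 7, where 28.2% of all genes passed, and the median log2 fold change was 0.0013. Micu2, a calcium-sensing regulator of the calcium uniporter, rose from 30.6 ± 1.51 to 37.3 ± 1.16 CPM (SD, n = 3 each), a log2 fold change of 0.29 (SE 0.060) at an edgeR adjusted p of 0.0150. Ucp2, an uncoupling protein, rose from 66.1 ± 4.55 to 79.7 ± 2.02 CPM (0.27, SE 0.056, edgeR adjusted p = 0.0149). The uniporter pore gene Mcu was at 0.18 (edgeR adjusted p = 0.128), the sodium-calcium exchanger Slc8b1 at 0.014 (0.948) and Ghitm, a calcium-proton exchanger of the inner membrane, at -0.043 (0.511) on the log2 fold change scale. Without control replicate 2 or D-serine replicate 3 none of the list was called, where 68 and 291 of all genes passed. Without control replicate 1 or 3 there was 1, where 125 and 453 passed. With the length trend removed, 3 rose and 3 fell, where 15.3% of all genes passed. Micu2 lost its call without control replicate 2 or 3 or D-serine replicate 3 (highest adjusted p over all alternatives 0.0801). Ucp2 lost its call without control replicate 1 or 2 or D-serine replicate 3 (0.0744), and with replicate number as a block.

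Loss of LETM1 is known to alter cristae, so genes of inner membrane shape and of mitochondrial fusion and fission were listed next. Of 28 tested genes, 2 fell and 0 rose (edgeR, 7.14% against 9.74% of all genes), and the list median was 0.044 on the log2 scale. At an unadjusted p under 0.05 there were 9, where 28.2% of all genes passed. Mtfr1, a regulator of mitochondrial fission, fell from 98.1 ± 3.19 to 84.3 ± 3.65 CPM (SD, n = 3 each), a log2 fold change of -0.22 (SE 0.050) at an edgeR adjusted p of 0.0196. The outer membrane mitofusin gene Mfn1 fell from 46.6 ± 3.89 to 39.9 ± 1.51 CPM (-0.22, SE 0.066, edgeR adjusted p = 0.0494). The inner membrane fusion gene Opa1 was at 0.12 (edgeR adjusted p = 0.186) and the protease gene Oma1, which cleaves OPA1, at 0.50 (0.0823), with mean levels of 2.81 and 3.99 CPM. The split changed with the setting, as did that of all genes. Upper quartile scaling gave 3 rises and 1 fall (914 and 412 over all genes), as did library totals (944 and 412). Removal of the length trend or leaving out D-serine replicate 1 gave 3 of each, where 2043 and 1699 of all genes passed. Leaving out control replicate 1, 2 or 3 or D-serine replicate 3 left 0, where 125, 68, 453 and 291 of all genes passed. Mfn1 lost its call under 9 of 16 alternatives (highest adjusted p 0.175) and Mtfr1 under 5 (0.102), in both cases without control replicate 1, 2 or 3 or D-serine replicate 3 among them, and Mfn1 also without D-serine replicate 2.

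Among genes for protein insertion and quality control at the inner membrane and for partners of LETM1, 3 of 18 rose and 0 fell (edgeR, 16.7% against 9.74% of all genes). At an unadjusted p under 0.05 there were 10, where 28.2% of all genes passed. The median log2 fold change was 0.16, and 14 of the 18 were above 0, as were 6890 of all 13366 genes tested. With the length trend removed, the median was 0.10 and 4 of the 18 rose, where 15.3% of all genes passed. Mrpl36, a mitochondrial ribosomal protein described as a LETM1 partner, rose from 17.1 ± 1.01 to 22.1 ± 0.93 CPM (SD, n = 3 each), a log2 fold change of 0.37 (SE 0.073) at an edgeR adjusted p of 0.0127. The protease gene Htra2 rose from 35.2 ± 1.68 to 41.3 ± 0.65 CPM (0.23, SE 0.057, edgeR adjusted p = 0.0262), and it shares 533 exonic bases with Loxl3 and 51 with Aup1 on the opposite strand. The mitochondrial ATPase gene Lace1 rose from 11.6 ± 0.45 to 14.3 ± 0.67 CPM (0.31, SE 0.082, edgeR adjusted p = 0.0356). Bcs1l, a complex III assembly factor and LETM1 partner, was at 0.22 (SE 0.086, edgeR adjusted p = 0.118). The count was 0 without control replicate 2 or D-serine replicate 3, where 68 and 291 of all genes passed. It was 1 without control replicate 1 or 3, where 125 and 453 passed. Mrpl36 lost its call in those first 2 cases (highest adjusted p 0.0654), Htra2 without control replicate 1, 2 or 3 or D-serine replicate 3 (0.106) and Lace1 without any 1 library (0.108). Htra2 and Lace1 also lost their calls with replicate number as a block.

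Letm2 is a testis-type paralog, and other testis-type genes of mitochondria, glycolysis and sperm were mostly too low to test. Of 21 such genes, 4 passed the filter on low counts. Catsper2, a subunit of the sperm calcium channel, rose from 3.04 ± 0.16 to 5.28 ± 0.30 CPM (SD, n = 3 each), a log2 fold change of 0.80 (SE 0.14) at an edgeR adjusted p of 0.0086. Without control replicate 2 its adjusted p was 0.0517. The testis-type respiratory chain gene Cox7b2 was at 0.092 (edgeR adjusted p = 0.439), the enolase Eno4 at -0.072 (0.780) and the sperm glyceraldehyde phosphate dehydrogenase gene Gapdhs at -0.25 (0.412). The summed levels of the germ cell markers named above overlapped between the groups, and their part in the values of Letm2 and Catsper2 was not tested.

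**Figure D5:**
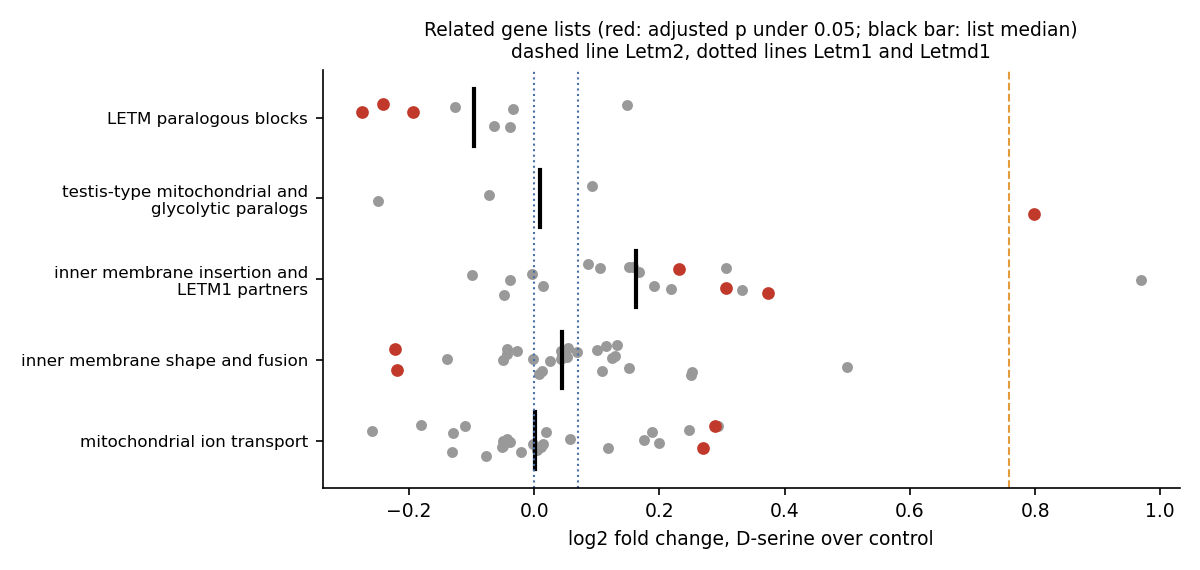
Log2 fold changes (horizontal axis) of the tested genes of 5 related lists (rows), called genes in red, with the list median as a black bar and lines at Letm2 (dashed) and at Letm1 and Letmd1 (dotted). Catsper2 at 0.80 lies near the Letm2 line at 0.76, and the list medians run from -0.095 to 0.16.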

How the data were processed

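The deposited table holds raw read counts for each gene in 6 libraries, beside the exonic length in bases, in the layout of featureCounts per the file headers. HISAT2, Trim Galore, featureCounts and the builds GRCm38 and mm10 are named in the submitters' processing notes, without versions. The strand setting is not given in the sources used here. Of 23172 symbols found in RefSeq's GRCm38 gene table, 314 had the same start there, so gene positions are given as deposited, and their build is not named. Sequences are from GENCODE M21 (GRCm38).

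Columns named vehicle were taken as control libraries of the same number. The members and gene lists were chosen with earlier results of these data known. Genes passing filterByExpr were tested with edgeR 4.0.16 (R 4.3.3) by the quasi-likelihood F test, two-sided, after TMM scaling, with Benjamini-Hochberg adjustment over 13366 genes and a threshold of 0.05. CPM is scaled by TMM, RPKM is CPM per kilobase of exon, and an SE is the log2 fold change over the square root of F. Proteins were aligned with Biopython 1.88 (BLOSUM62). Alternatives were DESeq2 1.42.0, limma-voom 3.58.1, other scalings and filters, a replicate block, removal of the length trend (spline, 5 df) and leaving out each library. Named genes were the members, up to 4 called genes with the smallest p per list, 14 genes fixed by name, and the 5 genes most like each member by Pearson's r (log2 CPM, prior count 2). Values of some of these genes and markers are not reported here.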

Additional observations from a re-analysis of the deposited data

How the results depend on the processing

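The log2 fold changes of Letm1, Letm2 and Letmd1 moved by less than the replicate SD in all 16 alternatives. The Letm2 share of the family was 4.39 percentage points higher under D-serine by RPKM, 3.97 to 4.87 when 1 library was left out, and 3.27 by raw counts. Against 1302 calls over all genes, the count was 298 with replicate number as a block (178 higher, 120 lower), 2043 with the length trend removed, and 68 to 1699 when 1 library was left out. The deviations of same-numbered libraries from their group means had an r from -0.069 to 0.020. No label says that the numbers pair cultures, and so few values cannot decide it. With the replicate block, where 298 of 13366 genes passed, 1 of 26 passed in ion transport and 0 of 28 in inner membrane shape. In insertion and LETM1 partners 1 of 18 passed, in the paralogous blocks 0 of 8 and among the neighbours 0 of 31. With the length trend removed, 6 passed in ion transport and 6 in inner membrane shape, where 2043 genes passed in all. Both counts stayed at 6 with the replicate block added, where 1900 genes passed in all. For inner membrane shape, upper quartile scaling gave 4 (1326 over all genes), library totals 4 (1356), no filter on low counts 5 (1867 of 17635) and limma-voom 1 (1261). Leaving out 1 library gave 0 to 3 in ion transport, 0 to 6 in inner membrane shape, 0 to 3 in insertion and partners, 0 to 1 in testis-type genes, 0 to 4 in the blocks and 0 to 7 among the neighbours. These ranges stand beside the 68 to 1699 calls over all genes. Within 500 kb, 7 of 49 neighbours passed (14.3%). Whsc1 reversed to 0.10 with the length trend removed. The median likeness of the genes most like Letm1, Letm2 and Letmd1 was 0.991, 0.993 and 0.990 by Pearson's r and 1, 0.943 and 1 by Spearman's rho. The cause of these changes was not tested. Letm2 had 266 to 563 counts per library, where Letm1 and Letmd1 had 1924 to 3209.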
